A study of Mus musculus with 4 samples.

Results

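Jaml, the gene of the junctional adhesion molecule-like receptor of leukocytes, and Cxadr, the gene of its ligand, were followed through the cells of the ascending aorta in a mouse model of aortic dissection. They are 2 of the 55357 genes in the deposited count tables and were found there by symbol. Jaml was chosen by its UMI counts in macrophages, where it was far higher in the paquinimod-treated group, so its values in that contrast are given as a description without a test. Cxadr was taken as the ligand. Single-cell RNA sequencing with 10x Genomics 3′ chemistry, which counts RNA molecules by a barcode of their own (the UMI), was applied to 4 libraries. The AD_ABR group (2 libraries) came from male wild-type (WT) mice that drank β-aminopropionitrile (BAPN, 1 g/kg/d) for 4 weeks from 3 weeks of age and also received paquinimod (10 mg/kg/d) into the stomach. The AD group (2 libraries) came from male WT mice of the same age with the same BAPN dose and no paquinimod. BAPN weakens the vessel wall by blocking lysyl oxidase, the cross-linker of elastin, and paquinimod binds S100A9, so both groups carry BAPN and no group without it is described here. The labels do not say whether the libraries of a group came from separate animals or from pools, so p-values measure the spread between these libraries, which may be technical.

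JAML is a single-pass immunoglobulin superfamily protein of the JAM and CTX family of adhesion molecules, known from neutrophils and monocytes in humans and from epithelial gamma delta T cells in mice. CXADR, the coxsackievirus and adenovirus receptor, is a junction protein of epithelia, mesothelium and the heart. Binding of JAML by CXADR is known to recruit PI3K to the cytoplasmic tail of JAML in mouse epidermal gamma delta T cells and to take part in leukocyte passage across epithelium.

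Jaml (ENSMUSG00000048534) lies on chromosome 9 at 45079183 to 45108534 on the plus strand, and Cxadr (ENSMUSG00000022865) on chromosome 16 at 78301489 to 78359774 on the plus strand (GRCm38, GENCODE annotation). The lincRNA Gm10684 overlaps the 3′ part of Jaml on the opposite strand over 1359 bases, and Btg3 overlaps Cxadr on the opposite strand over 27138 bases. Whether the counting used strand is not given in the sources used here, so reads of these pairs may not be kept apart. Gm10684 had 1 and 5 UMIs in the macrophage-like cells of AD_ABR, against 0 and 1 in AD. The neighbours Mpzl3 (2.85 and 2.10 CPM in AD_ABR, 2.90 and 0.682 CPM in AD) and Scn2b (0.949 and 1.13 CPM in AD_ABR, 0.193 and 0 CPM in AD) were both low there, where CPM is UMIs per 1000000 UMIs of the class. The 250 bases before the annotated start of Jaml are shown because the transcript differed so widely between the macrophages of the groups. They come from RefSeq (chr9:45078933-45079182, plus strand, GRCm38.p6), and the capitals mark the single match to a pattern of interferon-response type (GAAA, any 2 bases, GAAA), which reads on the minus strand.
Jaml upstream sequence: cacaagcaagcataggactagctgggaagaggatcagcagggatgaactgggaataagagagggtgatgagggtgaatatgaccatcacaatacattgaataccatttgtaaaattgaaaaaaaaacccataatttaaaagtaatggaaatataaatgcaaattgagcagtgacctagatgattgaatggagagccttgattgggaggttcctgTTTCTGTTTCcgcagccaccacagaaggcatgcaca
The match covers positions −36 to −27 relative to the start, and 3.44% of the 32851 mouse promoters searched on both strands hold at least 1 such match. GAGGAA, a motif bound by the myeloid factor PU.1, had no match in the 300 bases searched and occurs in 28.3% of promoters. The shorter letters GGAA, which do occur in the sequence shown, were not counted. Both patterns searched were chosen after the sequence had been read, and a match is a description of letters, not a binding site.

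The libraries held 93575612 and 98946431 UMIs in AD_ABR, against 76142840 and 99572011 in AD, and after filters on cells 8451 and 9872 cells remained in AD_ABR, against 9154 and 9782 in AD. Kept cells were deeper in AD_ABR, with medians of 9452 and 8208 UMIs, than in AD, with 5268 and 7185. Neutrophil-like cells made up 0.248 and 0.101% of cells in AD_ABR, against 17.9 and 2.37% in AD, so AD replicate 1 stands apart by its neutrophils. The ribosomal sequence Rn18s-rs5 took 1.83 and 1.37% of UMIs in AD_ABR, against 5.34 and 3.23% in AD. Any pair of libraries shared between 22 and 38 barcodes. Cells were clustered with Jaml and Cxadr kept out of the clustering genes, and a cluster is called X-like from markers fixed for type X. Smooth muscle-like, fibroblast-like and endothelial-like cells, which define the vessel wall, were found in every library. Macrophage-like cells consisted of a resident cluster led by Folr2, Cd163, F13a1 and Lyve1 (cluster 9) and a cluster led by Cd72, Ms4a7 and Cx3cr1 (cluster 7). Dendritic-like cells consisted of a Cd209a cluster, which also holds Ccr7 cells (cluster 8), and an Xcr1 and Clec9a cluster (cluster 26). Cluster 10, led by Arg1 and Ppbp, reached 9 macrophage markers (mean log2 fold 2.68) and 5 genes of the Arg1 macrophage subset. It stayed unnamed because its leading genes held 1 platelet marker and 0 macrophage markers. Its 18 and 37 cells in AD_ABR, and 703 and 434 in AD, are therefore not counted as macrophage-like.

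Jaml, the receptor, was abundant in the macrophages of AD_ABR and close to absent from those of AD. In macrophage-like cells it had 592 and 1441 UMIs in AD_ABR, against 25 and 18 in AD, from 430 and 931 cells in AD_ABR and 1108 and 531 cells in AD. This gave 187 and 233 CPM in AD_ABR, against 4.83 and 6.14 CPM in AD. The groups did not overlap, and the mean of 210 ± 32.2 CPM in AD_ABR was 38.3-fold the 5.48 ± 0.922 CPM of AD (SD, n = 2 each). By fitted log2 fold change (5.22) Jaml ranked 2 of the 11318 genes tested in these cells. This contrast chose the gene, and 0.353% of all genes passed the test in it (edgeR quasi-likelihood test, Benjamini-Hochberg adjusted p under 0.05).

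A Jaml UMI was found in 48.4 and 50.4% of the macrophage-like cells of AD_ABR, against 2.08 and 1.88% in AD. Fibroblast-like cells, which are assumed and not shown to lack the gene, carried such a UMI in 0.356 and 0.352% of cells in AD_ABR. In AD their shares were 0.25 and 0%, where 0 of 1807 cells allows up to 0.166%. The part of free RNA in these shares was not tested. Median depths were 7146.5 and 6167 UMIs in the macrophage-like cells of AD_ABR and 4306 and 5170 in those of AD, against 9600 and 8582 (AD_ABR) and 8043 and 7879 (AD) in fibroblast-like cells. With each cell thinned to 2000 UMIs, the macrophage-like shares were 27.3 and 30.2% in AD_ABR, against 1.04 and 1.09% in AD. Fibroblast-like shares thinned in this way were 0.0905 and 0% in AD_ABR, against 0 and 0% in AD. The thinning left out 24 and 45 cells in AD_ABR and 149 and 71 in AD. The share was thus higher in both AD_ABR libraries at equal depth.

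The 2 macrophage clusters both held more Jaml in AD_ABR, and the resident one held the most. In the resident cluster Jaml had 461 and 1263 UMIs in AD_ABR (290 and 638 cells), against 3 and 6 UMIs in AD (63 and 222 cells). These are 233 and 313 CPM in AD_ABR, against 7.98 and 4.89 CPM in AD, with a ratio of pooled levels of 51.0 and a counting interval of 26.8 to 112 (95%, exact, for counting error only). In the Cx3cr1 cluster Jaml had 131 and 178 UMIs in AD_ABR (140 and 293 cells), against 22 and 12 in AD (1045 and 309 cells), or 111 and 82.8 CPM in AD_ABR, against 4.58 and 7.03 CPM in AD. The ratio there was 17.8 (12.4 to 26.1). Jaml was chosen by its rise in macrophages, so these intervals describe counting error and test nothing. Cluster 10 had 135 and 22.9 CPM in AD_ABR from 18 and 37 cells, against 10.8 and 5.67 CPM in AD (51 and 17 UMIs) from 703 and 434 cells. Its level in AD_ABR rests on 23 and 7 UMIs and differed widely between the libraries, but both lay above those of AD.

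**Figure D1:**
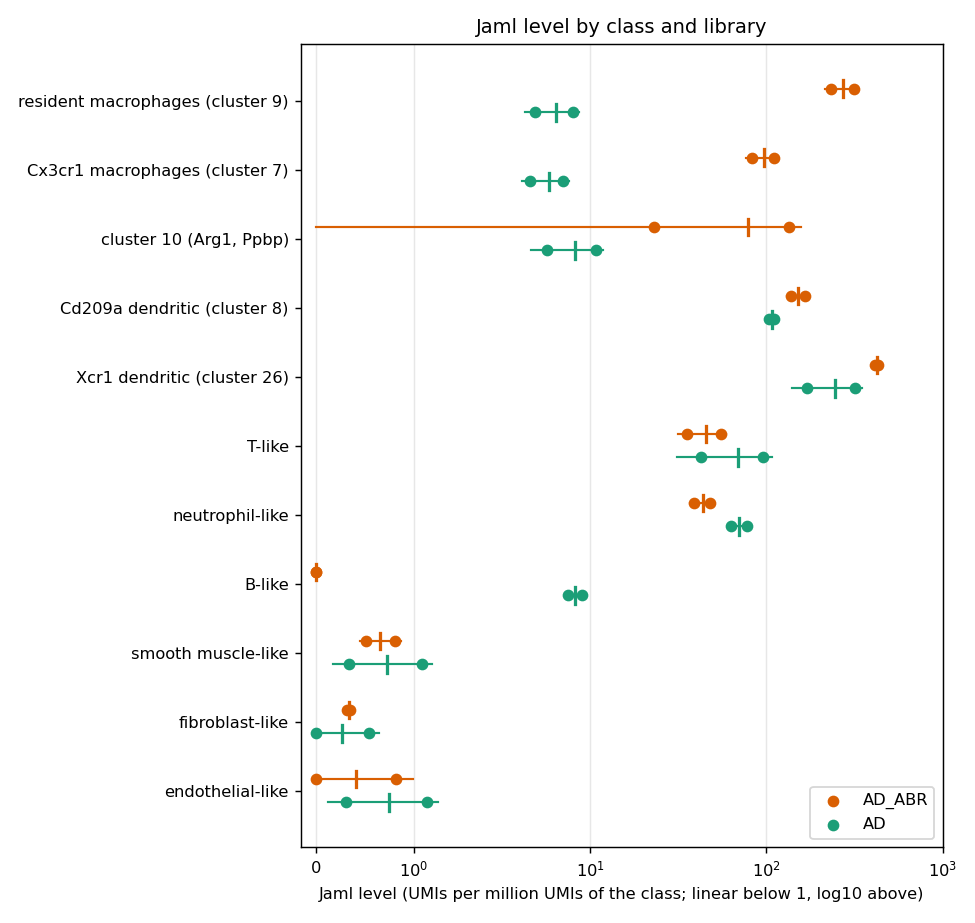
Jaml level (x axis, CPM, linear below 1 and log10 above) by class or cluster (y axis), where points are libraries with at least 5 cells, vertical ticks are group means and lines are the SD of 2 libraries. The AD_ABR points of the resident macrophages sit at 233 and 313 CPM, against 7.98 and 4.89 CPM in AD, while the dendritic clusters are high in both groups.

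The resident cluster made up 67.4 and 68.5% of macrophage-like cells in AD_ABR, against 5.69 and 41.8% in AD. With the shares of both clusters held at their mean over the 4 libraries, the macrophage-like level of Jaml was 167 and 188 CPM in AD_ABR, against 6.14 and 6.05 CPM in AD. The resident cluster of AD replicate 1 enters this value with 3 Jaml UMIs from 63 cells.

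Counts per cell show that many cells carried Jaml in AD_ABR. In the resident cluster, 25.5 and 28.7% of cells in AD_ABR held 3 or more Jaml UMIs, against 0 and 0.450% in AD. Cells with 0 UMIs were 44.5 and 37.9% in AD_ABR, against 95.2 and 98.2% in AD, and the highest cells held 16 and 15 UMIs in AD_ABR, against 1 and 3 in AD. In the Cx3cr1 cluster, 12.1 and 7.85% of cells held 3 or more in AD_ABR, against 0 and 0.324% in AD. Among resident cells of 4000 up to 8000 UMIs, 54.3 and 66.7% had a Jaml UMI in AD_ABR (164 and 435 cells), against 3.45 and 1.41% in AD (29 and 142 cells). Among resident cells of 2000 up to 4000 UMIs the shares were 38.5 and 45.8% in AD_ABR, against 5.26 and 0% in AD. The groups did not overlap in any of the 4 depth ranges of either cluster.

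**Figure D2:**
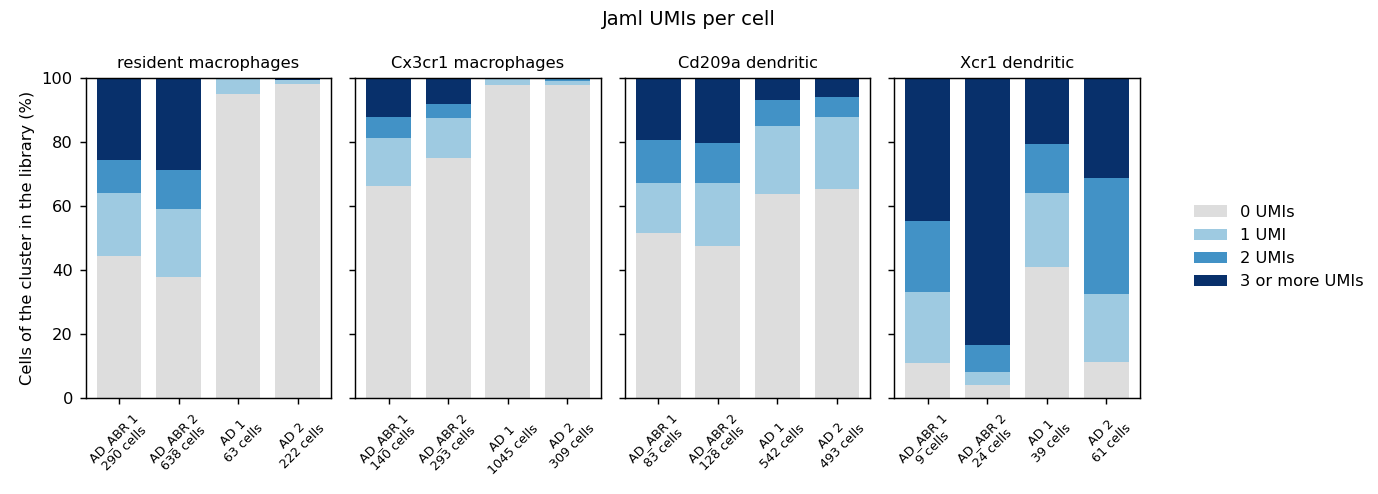
Share of cells (y axis, %) with 0, 1, 2 or 3 or more Jaml UMIs in each library (x axis, with its number of cells) of 2 macrophage and 2 dendritic clusters. In AD 95.2 and 98.2% of resident macrophages held none, whereas the AD_ABR bars and all dendritic bars hold cells with several UMIs.

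**Figure D3:**
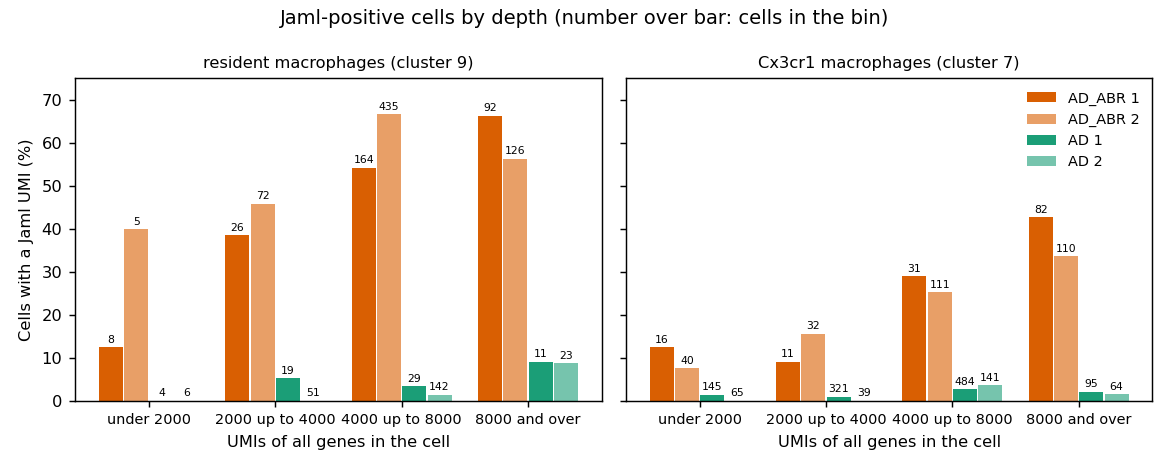
Share of cells with a Jaml UMI (y axis, %) by total UMIs of the cell (x axis) in the resident and Cx3cr1 macrophage clusters, 1 bar per library, with the number of cells over each bar. AD_ABR bars stand above AD bars in each depth range, for example 54.3 and 66.7% in AD_ABR against 3.45 and 1.41% in AD in resident cells of 4000 up to 8000 UMIs, while bins under 2000 UMIs hold few resident cells.

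Markers of dendritic cells, neutrophils and monocytes were measured in the same clusters. The summed level of 9 dendritic markers in the resident cluster was 187 and 166 CPM in AD_ABR, against 202 and 174 CPM in AD, and 7 and 9 of the 9 markers had a UMI in AD_ABR, against 8 and 7 in AD. It was thus not higher in AD_ABR there. In the Cx3cr1 cluster the same sum was 130 and 165 CPM in AD_ABR, against 73.6 and 80.3 CPM in AD, so it was higher in both AD_ABR libraries. Of the 9 markers 7 and 7 had a UMI there in AD_ABR, against 9 and 8 in AD, and Zbtb46 was at 0 in both AD_ABR libraries and in AD replicate 2. The part of this sum in the Jaml level of that cluster was not tested. The 7 neutrophil markers summed to 53.0 and 42.8 CPM in the resident cells of AD_ABR, against 237 and 144 CPM in AD, with Retnlg and Ly6g at 0 in all 4 libraries. The 7 monocyte markers summed to 342 and 225 CPM in the resident cells of AD_ABR, against 431 and 200 CPM in AD. In the Cx3cr1 cluster they summed to 731 and 387 CPM in AD_ABR, against 438 and 355 CPM in AD, with overlapping groups. Within the resident cells of AD_ABR, those with a Jaml UMI had dendritic sums of 161 and 164 CPM, against 223 and 168 CPM in those without one. In the Cx3cr1 cluster the order was the other way round. Cells with a Jaml UMI had dendritic sums there of 159 and 241 CPM in AD_ABR (47 and 73 cells), against 109 and 131 CPM in those without one. In AD the sums were 152 and 734 CPM in the 20 and 6 cells with a Jaml UMI, against 71.8 and 63.7 CPM in those without one. Monocyte sums in resident cells of AD_ABR were 354 and 252 CPM with a Jaml UMI, against 324 and 181 CPM without one. In AD they were 1246 and 913 CPM in 3 and 4 cells with one, against 391 and 177 CPM. Those of the Cx3cr1 cluster in AD_ABR were 540 and 479 CPM with one, against 863 and 344 CPM without one. In AD the Cx3cr1 values were 1009 and 521 CPM, against 425 and 350 CPM. The part of these sums in the Jaml level was not tested.

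Dendritic cells, which present antigen to T cells, held Jaml in both groups. Dendritic-like cells had 168 and 224 CPM in AD_ABR (137 and 287 UMIs), against 117 and 138 CPM in AD (409 and 447 UMIs). The AD_ABR libraries lay above those of AD, at 196 ± 39.7 CPM against 127 ± 15.1 CPM (SD, n = 2 each), but the difference did not pass the test (log2 fold change 0.55 ± 0.21 SE, adjusted p = 0.265, edgeR), and 0.962% of genes passed it. In the Cd209a cluster Jaml stood at 137 and 166 CPM in AD_ABR, against 111 and 103 CPM in AD (adjusted p = 0.441, edgeR, where 1.27% of genes passed). In the Xcr1 cluster it stood at 414 and 432 CPM in AD_ABR (9 and 24 cells), against 170 and 319 CPM in AD (39 and 61 cells), which is too few cells for a test. The Xcr1 cluster had a higher level than the Cd209a cluster in each of the 4 libraries. Thinned to 2000 UMIs, 25.9 and 33.6% of dendritic-like cells had a Jaml UMI in AD_ABR, against 16.4 and 17.8% in AD.

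The order of the classes by Jaml level thus differed between the groups. In AD_ABR macrophage-like (210 ± 32.2 CPM) and dendritic-like cells (196 ± 39.7 CPM) stood at the top and did not differ beyond their spread. T-like cells followed with 45.3 ± 13.7 CPM in AD_ABR. In AD dendritic-like cells came first with 127 ± 15.1 CPM, before neutrophil-like (70.2 ± 9.89 CPM) and T-like cells (69.1 ± 37.9 CPM), which did not differ beyond their spread, and macrophage-like cells came below B-like cells (8.23 ± 1.06 CPM). Of all Jaml UMIs, macrophage-like cells held 72.1 and 76.6% in AD_ABR, against 3.13 and 2.85% in AD, and dendritic-like cells 16.7 and 15.3% in AD_ABR, against 51.3 and 70.8% in AD. Over all kept cells Jaml stood at 9.63 and 21.8 CPM in AD_ABR, against 12.1 and 7.21 CPM in AD, and there the groups overlap. Macrophage-like cells were 5.09 and 9.43% of cells in AD_ABR, against 12.1 and 5.43% in AD, and dendritic-like cells 1.09 and 1.54% in AD_ABR, against 6.35 and 5.66% in AD. Cluster 10, which is in neither class, was 0.213 and 0.375% of cells in AD_ABR, against 7.68 and 4.44% in AD.

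Other leukocytes carried Jaml at lower levels. Neutrophil-like cells, which release S100A8 and S100A9, had 163 and 28 Jaml UMIs in the AD libraries, but 21 and 10 such cells with 2 and 1 UMIs were left in AD_ABR. T-like cells had 55.0 and 35.7 CPM in AD_ABR, against 42.3 and 95.9 CPM in AD, with overlapping groups. T-like cells with a UMI of Trdc, the delta chain constant region of the T cell receptor, had 111 and 0 CPM in AD_ABR (10 and 8 cells), against 279 and 212 CPM in AD (18 and 40 cells). T-like cells without one had 40.4 and 38.4 CPM in AD_ABR, against 29.0 and 66.7 CPM in AD. The Trdc cells of AD thus held more Jaml than the other T-like cells of the same libraries, and those of AD_ABR rest on 5 and 0 UMIs. Among dividing cells, cluster 24, which carries Cd209a dendritic genes, held Jaml at 78.6 ± 29.9 CPM in AD_ABR against 40.7 ± 15.5 CPM in AD (SD, n = 2 each). B-like cells, at 7.48 and 8.98 CPM in AD, had 0 UMIs in 20 and 41 cells in AD_ABR, which allows shares of up to 15 and 7.32%.

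Cells of the vessel wall held almost no Jaml. Smooth muscle-like cells of the media had 0.507 and 0.808 CPM in AD_ABR, against 1.11 and 0.333 CPM in AD, and did not pass the test (log2 fold change 0.15 ± 0.56 SE, adjusted p = 0.885, edgeR, where 14.9% of genes passed). The fitted value and the ratio of the means differ in sign, and the fitted value was negative without AD replicate 2 (−0.67) or AD_ABR replicate 2 (−0.24). Fibroblast-like cells had 0.320 and 0.347 CPM in AD_ABR, against 0.537 and 0 CPM in AD, and endothelial-like cells 0 and 0.820 CPM in AD_ABR, against 1.18 and 0.302 CPM in AD. Schwann-like cells had 0 Jaml UMIs in all 4 libraries.

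Over 17 classes and clusters with at least 20 cells in every library, the 8 genes whose profile of log2(CPM + 1) was most like that of Jaml, among 14202 compared, were Gm45266, Ltb4r1, BC147527, Gm5547, Parvg, Coro2a, Ccdc88b and Runx3, with Pearson r between 0.964 and 0.980. Ltb4r1 is the leukotriene B4 receptor, and Runx3 a transcription factor of T and dendritic cells. The classes share libraries, and r is a description.

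Cxadr, the ligand, was rare in the aorta and, in AD_ABR only, concentrated in a handful of mesothelial-like cells. These cells, which line serous surfaces and expressed Upk3b and Msln, numbered 15 and 15 in AD_ABR, against 0 and 1 in AD. In AD_ABR they held 67 and 33 Cxadr UMIs, or 303 and 208 CPM, in 14 and 13 of 15 cells each, and the 1 cell of AD held 0. They carried 59.8 and 42.3% of all Cxadr UMIs of the AD_ABR libraries. In AD they carried 0% of the 90 and 58 Cxadr UMIs, which were spread over many classes. The largest shares in AD were 15.6% in neutrophil-like cells of replicate 1 and 27.6% in smooth muscle-like cells of replicate 2. Cluster 12, which stayed unnamed, held 12.2 and 13.8% of Cxadr UMIs in AD. Of cells with 3 or more Cxadr UMIs, 10 of 11 and 7 of 7 were mesothelial-like in AD_ABR, against 0 of 4 and 0 of 1 in AD. The mesothelial-like cells held 0 Jaml UMIs in each library. Summed over all other kept cells Cxadr stood at 0.529 and 0.522 CPM in AD_ABR, against 1.36 and 0.663 CPM in AD.

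Over all kept cells Cxadr had 1.31 and 0.902 CPM in AD_ABR, against 1.36 and 0.663 CPM in AD, with overlapping groups and no call (log2 fold change 0.25 ± 0.43 SE, adjusted p = 0.717, edgeR, where 3.38% of genes passed). The fitted direction turned without AD replicate 2 (−0.12) or AD_ABR replicate 1 (−0.03). Fewer cells of a type and less RNA per cell cannot be told apart in this sum.

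**Figure D4:**
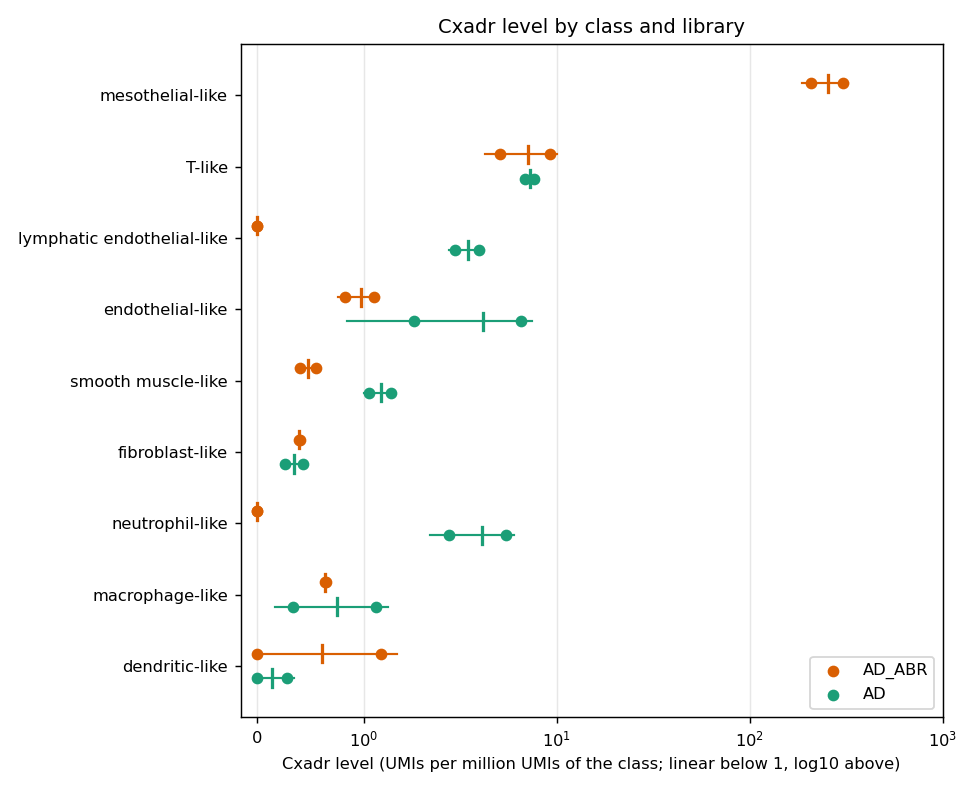
Cxadr level (x axis, CPM, linear below 1 and log10 above) by class (y axis), where points are libraries with at least 5 cells, vertical ticks are group means and lines are the SD of 2 libraries. The mesothelial-like cells of AD_ABR sit at 303 and 208 CPM, and the AD group has no point there, while smooth muscle-like cells lie between 0.400 and 1.38 CPM in all 4 libraries.

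Among the stromal cells, Cxadr was sparse. Smooth muscle-like cells had 15 and 15 UMIs in AD_ABR (0.400 and 0.551 CPM), against 10 and 16 UMIs in AD (1.38 and 1.07 CPM). The AD_ABR libraries lay below those of AD without passing the test (log2 fold change −1.27 ± 0.45 SE, adjusted p = 0.0654, edgeR). A Cxadr UMI was found in 0.444 and 0.508% of these cells in AD_ABR, against 1.18 and 0.862% in AD, and in 0.465 and 0.430% of macrophage-like cells in AD_ABR, against 0.271 and 0.188% in AD. Thinned to 2000 UMIs the smooth muscle-like shares were 0.119 and 0.0739% in AD_ABR, against 0.240 and 0.220% in AD, from 2 to 4 cells a library. The macrophage-like shares were 0 and 0.226% in AD_ABR, against 0.313 and 0.217% in AD. Fibroblast-like shares at that depth were 0.0905 and 0.0514% in AD_ABR, against 0 and 0.112% in AD. The smooth muscle-like shares thus lay above the fibroblast-like ones in all 4 libraries, and below the macrophage-like ones in 2 of 4. The part of free RNA in these shares was not tested. Btg3, a growth inhibitor on the opposite strand, stood at 123 and 109 CPM in the smooth muscle-like cells of AD_ABR, against 91.2 and 92.9 CPM in AD.

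Endothelial-like cells had 3 and 2 Cxadr UMIs in AD_ABR, against 11 and 6 in AD, or 1.13 and 0.820 CPM in AD_ABR, against 6.50 and 1.81 CPM in AD, where replicate 1 stands apart. The ratio of pooled levels was 0.288 with a counting interval of 0.0832 to 0.814, and the gene did not pass the filter on low counts there. Lymphatic endothelial-like cells had 0 and 0 UMIs in AD_ABR (37 and 26 cells), against 9 and 4 in AD (308 and 164 cells). T-like cells had 9.17 and 5.10 CPM in AD_ABR, against 6.86 and 7.61 CPM in AD, from at most 6 UMIs a library, all in cells without a Trdc UMI. Fibroblast-like cells had 0.401 and 0.397 CPM in AD_ABR, against 0.268 and 0.430 CPM in AD. Cells with a UMI of both genes numbered 5 and 4 in AD_ABR, against 3 and 2 in AD. The 8 genes with a class profile most like that of Cxadr, over the same 17 classes, had r between 0.810 and 0.884 and included Polg2, Slc7a6os, Nefh, Parg, Kcnc1, Zfp407 and Znrf1. Mesothelial-like cells were too few to enter that comparison, and the class with the highest Cxadr mean in it had 7.05 CPM, so these likenesses rest on few UMIs.

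Of the 13 relatives of Jaml and Cxadr in the JAM and CTX family, 3 could be tested in macrophage-like cells and 0 passed by edgeR. Their median log2 fold change was −0.17, against −0.01 over all genes tested, of which 0.353% passed. F11r (JAM-A, an epithelial, endothelial and leukocyte junction protein) had 21.5 and 20.5 CPM in AD_ABR, against 90.6 and 40.2 CPM in AD (log2 fold change −1.74 ± 0.42 SE, adjusted p = 0.166, edgeR). Clmp had 19.3 and 20.2 CPM in AD_ABR, against 24.9 and 16.7 CPM in AD, and the third, Mpzl3, is given above. In dendritic-like cells the same 3 were tested and 0 passed, where 0.962% of all genes did.

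In the vessel wall the levels of the family differed by cell type. Esam (an endothelial adhesion molecule) and Jam2 were highest in endothelial-like cells, with Esam at 503 and 453 CPM in AD_ABR, against 484 and 460 CPM in AD. F11r had 258 and 240 CPM in the endothelial-like cells of AD_ABR, against 261 and 252 CPM in AD, and more in lymphatic endothelial-like cells (334 and 404 CPM in AD_ABR, 305 and 306 CPM in AD). Jam3 stood at 64.9 and 72.1 CPM in the smooth muscle-like cells of AD_ABR, against 63.1 and 57.7 CPM in AD. Clmp was the family member that passed a test in a wall class, falling to 69.4 and 72.1 CPM in the smooth muscle-like cells of AD_ABR, against 98.6 and 102 CPM in AD (log2 fold change −0.43 ± 0.11 SE, adjusted p = 0.0153, edgeR). That makes 1 of 7 members tested there, beside 8.05% of all genes that were lower. The call was lost in edgeR without AD replicate 2 (adjusted p = 0.0534), AD_ABR replicate 1 (0.117) or AD_ABR replicate 2 (0.0968). Of 6 members tested in fibroblast-like and 5 in endothelial-like cells 0 passed by edgeR, where 0.53 and 5.47% of genes did. Vsig2 (4.51 to 6.39 CPM in the endothelial-like cells of AD_ABR, 3.02 to 5.91 CPM in those of AD) and Vsig8 (at most 2.46 CPM in the wall classes) were low. Igsf5 reached 12.7 CPM in T-like cells, Mpzl2 stayed under 5 CPM in the classes named here, and Gpa33, Igsf11 and Vsig1 were at or near 0.

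A list of 16 integrin, PI3K, Akt and adaptor genes was measured in macrophage-like cells. Of these, PI3K is the partner of JAML named above, and a link of the others to JAML was not tested. All 16 were tested and 0 passed by edgeR, beside 0.353% of all genes. Their median log2 fold change was 0.08. The most abundant were Itgb1, the integrin β1 chain, at 261 ± 4.56 CPM in AD_ABR against 317 ± 2.88 CPM in AD, and Grb2, an adaptor, at 232 ± 8.43 CPM in AD_ABR against 236 ± 28.5 CPM in AD. Itgam stood at 209 ± 11.03 CPM in AD_ABR against 186 ± 14.0 CPM in AD, and Itgb2 at 155 ± 0.983 CPM in AD_ABR against 111 ± 20.6 CPM in AD (SD, n = 2 each). Scaffold genes that bind CXADR in junctions also gave 0 calls of 9 tested in each of the smooth muscle-like, fibroblast-like and endothelial-like cells by edgeR. Of all genes 14.9, 0.53 and 5.47% passed in these 3 classes. Tjp1 (ZO-1) stood at 53.4 ± 3.15 CPM in the smooth muscle-like cells of AD_ABR against 68.4 ± 8.10 CPM in AD, and Mpdz, a scaffold of many PDZ domains, at 58.3 ± 4.56 CPM in AD_ABR against 63.1 ± 3.54 CPM in AD. At an unadjusted p under 0.05, 1753 of the 11318 genes tested in macrophage-like cells passed.

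Lists of macrophage identity genes, chosen with earlier results of these libraries known, give the setting of the Jaml difference. The macrophage-like class tested here leaves out cluster 10, which is led by Arg1. Of 10 resident genes tested in macrophage-like cells, where 0.353% of all genes passed, 0 did, with a median log2 fold change of 1.21. Folr2 stood at 619 ± 58.9 CPM in AD_ABR against 191 ± 191 CPM in AD, and F13a1 at 1246 ± 65.2 CPM in AD_ABR against 492 ± 406 CPM in AD. The AD libraries differed widely in both (56.2 and 327 CPM of Folr2), and the resident cluster was a smaller share of macrophages in AD replicate 1. C1qa, a complement gene, stood at 6350 ± 141 CPM in AD_ABR against 4133 ± 922 CPM in AD, and the mannose receptor gene Mrc1 at 1133 ± 78.1 CPM in AD_ABR against 682 ± 292 CPM in AD. Of 8 Arg1 macrophage genes 1 passed, beside 0.177% of all genes that were lower, namely Spp1 (osteopontin), which fell to 95.9 and 108 CPM in AD_ABR, against 778 and 441 CPM in AD (log2 fold change −2.66 ± 0.32 SE, adjusted p = 0.0386, edgeR). The call was lost in edgeR without AD_ABR replicate 1 (adjusted p = 0.605) or replicate 2 (0.546). Of 8 Cx3cr1 macrophage genes 0 passed, with a median of −1.02. Of 11 monocyte and recruitment genes 0 passed, with a median of −0.30, and Ccr2, the receptor of recruited monocytes, stood at 208 ± 60.6 CPM in AD_ABR against 246 ± 118 CPM in AD.

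Within the resident cluster, where 2.81% of 9062 genes passed (0.938% higher and 1.88% lower), Gpr141 changed in the same direction as Jaml. This orphan receptor gene, taken from the list of monocyte and recruitment genes, had 48 and 94 UMIs in AD_ABR, against 0 and 1 in AD (adjusted p = 0.00109, edgeR). The ratio of pooled levels was 37.8, with a counting interval of 6.68 to 1504 that is wide because AD held 1 UMI. It was 1 of 8 members of its list tested. With 0 and 1 UMIs in AD, the gene passed the filter on low counts only through AD_ABR. The lists used here were chosen with earlier results of these libraries known, so the adjusted p-values of Gpr141, Olfml3 and Spp1 are descriptions. Olfml3, an extracellular glycoprotein gene of the Cx3cr1 list, fell to 10.1 and 7.43 CPM in AD_ABR, against 34.6 and 28.5 CPM in AD (log2 fold change −1.84 ± 0.31 SE, adjusted p = 0.0056, edgeR). Spp1 fell to 6.56 and 14.4 CPM in AD_ABR, against 301 and 135 CPM in AD (log2 fold change −4.08 ± 0.46 SE, adjusted p = 0.00851, edgeR). Spp1 was lower in other classes too, at 1.40 ± 0.204 CPM in the smooth muscle-like cells of AD_ABR against 26.3 ± 5.79 CPM in AD, and the part of free RNA in its fall was not tested. The smooth muscle-like call (adjusted p = 2.26e-10, edgeR) was lost at Leiden resolutions 0.5 (adjusted p = 0.231, edgeR) and 2.0 (0.105). Of the 10 resident genes 0 passed in the resident cluster by edgeR, with a median log2 fold change of 0.49, against 0.00 over all genes. F13a1 had 1863 and 1932 CPM in AD_ABR, against 1609 and 1751 CPM in AD. It is among the genes that named the cluster, so its presence in both groups is no test of the cluster's identity.

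In the Cx3cr1 cluster, where 0.354% of genes passed (0.236% higher and 0.118% lower), Gpr141 stood at 72.1 and 51.2 CPM in AD_ABR, against 13.1 and 12.9 CPM in AD (log2 fold change 2.16 ± 0.28 SE, adjusted p = 0.0144, edgeR). This call was lost in edgeR without AD_ABR replicate 1 (adjusted p = 0.553) or replicate 2 (0.354). In dendritic-like cells Gpr141 stood at 104 and 110 CPM in AD_ABR, against 18.2 and 33.9 CPM in AD (log2 fold change 1.96 ± 0.28 SE, adjusted p = 0.00796, edgeR), where 0.395% of genes were called higher and 0.566% lower. Plac8 fell there to 147 and 150 CPM in AD_ABR, against 338 and 381 CPM in AD (adjusted p = 0.00586, edgeR), a call that was lost with doublets kept (0.466). C1qa, a complement gene of macrophages, stood at 160 and 111 CPM in AD_ABR, against 43.9 and 41.3 CPM in AD (adjusted p = 0.00728, edgeR). Spp1 fell to 19.6 and 23.4 CPM in AD_ABR, against 72.7 and 60.1 CPM in AD (adjusted p = 0.00894, edgeR). The Arg1 transcript had 0 and 0 UMIs in the dendritic-like cells of AD_ABR, against 39 and 24 in AD. This is at least 6.53-fold lower when 3 counts over the group are taken as the floor (adjusted p = 0.0312, edgeR, and 0.318 at Leiden resolution 2.0). With 0 and 0 UMIs in AD_ABR, the gene passed the filter on low counts only through AD, so the adjusted p is a description. Cluster 10, which is led by Arg1, made up 0.213 and 0.375% of cells in AD_ABR, against 7.68 and 4.44% in AD. Its part in the Arg1 UMIs of dendritic-like cells was not tested. Marker sums of other cell types moved with the dendritic-like calls. In dendritic-like cells the 9 macrophage markers, of which C1qa is 1, summed to 830 and 628 CPM in AD_ABR, against 615 and 485 CPM in AD, with 9 and 8 of them detected in AD_ABR, against 9 and 9 in AD. The 7 neutrophil markers summed to 1.22 and 1.56 CPM in AD_ABR, where 1 of them was detected in each library, against 575 and 22.2 CPM in AD. The part of these cells in the dendritic-like calls was not tested. The lists that hold these genes were chosen with earlier results of these libraries known. The adjusted p-values of list genes in this paragraph are therefore descriptions. Jaml itself, tested in dendritic-like cells, did not pass.

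**Figure D5:**
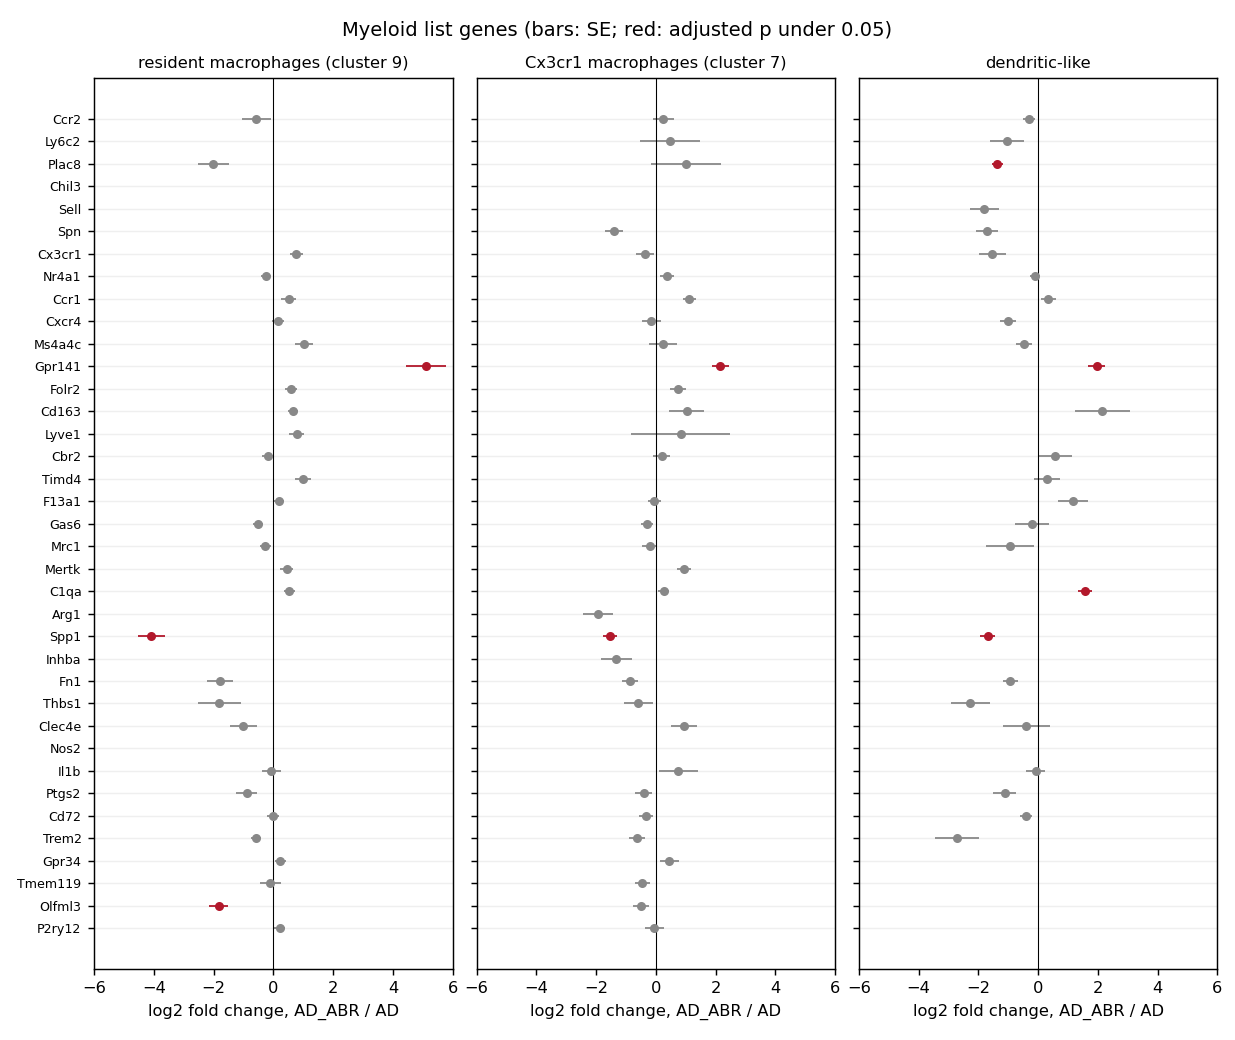
Log2 fold change of AD_ABR over AD (x axis) for myeloid list genes (y axis) in the resident cluster, the Cx3cr1 cluster and dendritic-like cells, with bars for the SE and red for an adjusted p under 0.05 (edgeR). Gpr141 is positive in all 3 panels, its value in the resident cluster (5.11) rests on 1 UMI in AD, and genes at 0 in 1 group, not tested or not reported here are not drawn.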

How the data were processed

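The deposited values are whole UMI counts of genes in cell barcodes, without normalization, 1 matrix a library, per the file headers. Alignment with STAR, counting with Cell Ranger 6.0, GRCm38 and Seurat 4.0 come from the submitters' processing notes. Per the file headers, Cell Ranger 7.1.0 wrote the counts. The counting annotation and its use of strand are not given in the sources used here. Barcodes with at least 200 genes and under 20% mitochondrial UMIs were kept. Doublets were scored with Scrublet (scanpy 1.11.5, Python 3.11.15), and the highest scores up to 0.8% per 1000 barcodes were removed (665 and 934 in AD_ABR, 791 and 916 in AD), because the caller's own threshold marked 1 barcode (0.01%) in AD replicate 1. Cells were clustered on 2000 variable genes, 30 principal components and 15 neighbours with leidenalg 0.10.2 at resolution 1.0, which gave 30 clusters. Jaml and Cxadr were kept out, since Jaml would have been among the variable genes.

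A cluster was named where 5 or more markers of a type each reached 10% of its cells and had a mean log2 fold of 1 or more over all other cells (5 CPM added). The threshold of 5 markers was set after the clusters had been seen, and rebuilt names may differ from the authors'. Counts were summed per library and class, and classes whose smallest library held 50 cells or more were tested with edgeR 4.0.16 (R 4.3.3; TMM, filterByExpr, quasi-likelihood test, AD_ABR minus AD), with Benjamini-Hochberg adjustment over all genes of the class at 0.05. SE is the fold change over the square root of F. Levels are CPM of these sums with the SD over 2 libraries, and classes under 20 cells in a library are given with their number of cells. Intervals are exact at 95%, and the limit for a count of 0 is 3 counts. Both cover counting error only. Pearson likeness used log2(CPM + 1) and genes with at least 5 CPM in their highest class. The tests were tried on simulated data first. Named genes are both members, the whole JAM and CTX family, and from each other list the members past the test (at most 4) or, with none, among the most abundant; some genes that the rule names are not reported here. The members and lists were chosen with earlier results of these data known. Library sums differed beyond sampling noise within each group (chi-square per degree of freedom of 63.3 in AD_ABR and 136 in AD). Promoter sequence is from RefSeq (GRCm38.p6), and positions are from GENCODE release M21.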

Additional observations from a re-analysis of the deposited data

How the results depend on the processing

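Jaml was chosen for its rise in macrophages of these same libraries. Alternative runs thus show how far the rise moves in size and give it no independent support. The higher Jaml level in macrophage-like cells of AD_ABR kept its direction under each alternative run. Its log2 ratio of means was 5.26, 5.09 to 5.44 with a library left out, and 4.68 with doublets kept, where the class held the resident cluster alone by construction. In the resident cluster it was 5.41, against 6.33 at Leiden resolution 2.0, 6.40 with both members among the clustering genes, 4.68 with doublets kept and 6.50 with a stricter cell filter. In the Cx3cr1 cluster it was 4.06, against 4.70, 4.64 and 4.89 at resolution 2.0, with the members kept and with the stricter filter, and at resolution 0.5 the 2 clusters were 1. The log2 ratio of shares of cells was 4.64, against 5.62 thinned to 1000 UMIs and 4.76 thinned to 2000. Jaml in dendritic-like cells kept its sign without a call in all 12 alternatives (0.27 to 0.77). In smooth muscle-like cells Jaml (0.15) ranged from −0.67 to 0.98 with a library left out and was −0.042 with the stricter filter. Cxadr over all kept cells (0.25) ranged from −0.12 to 0.81 with a library left out and was −0.13 with doublets kept. The cause of these moves was not tested.

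With the replicate number as a block, Cxadr in smooth muscle-like cells passed (log2 fold change −1.25, adjusted p = 0.0467, edgeR), and its adjusted p ranged from 0.0467 to 0.383 over the alternatives. With a library left out its fold change ranged from −1.498 to −1.02. The replicate numbers are not said to mark a shared animal or day. Deviations of same-numbered libraries correlated between −0.0442 and 0.151, and at 0.00901 in smooth muscle-like cells. Neither the labels nor these values show a pairing, so the block is an alternative run and not the design. List genes called higher in macrophage-like cells (0) were 1 with the block, 3 by DESeq2, 6 with no filter on low counts, 7 and 1 at Leiden resolutions 0.5 and 2.0, 2 with doublets kept, and 0 to 18 with a library left out. Of all genes 0.177% were called higher, against 0.548, 0.839, 1.56, 3.77, 0.207 and 1.07% in these settings, and 0.00785 to 10.9% with a library left out. List genes called lower (1) were 7 with the block, 10 by DESeq2, 13 with no filter, 11 and 2 at resolutions 0.5 and 2.0, 7 with doublets kept, and 0 to 18 with a library left out. Of all genes 0.177% were called lower, against 0.627, 1.06, 2.59, 4.09, 0.233 and 2.54%, and 0 to 13.9% with a library left out. The 18 and 18 list genes were called without AD replicate 2, where 10.9 and 13.9% of all genes were. In the stromal classes family and scaffold genes called higher (0) were 2 with the block and 0 to 1 with a library left out. Of all tests in these classes 3.01% were called higher, against 7% with the block. Those called lower (1) were 8 with the block, 3 with no filter, 2 and 3 at the resolutions, 2 with the members kept, 2 with doublets kept, 3 with the stricter filter, and 0 to 4 with a library left out, beside 4.17% of all tests, 8.11% with the block and 2.01 to 6.42% with a library left out. The shares of all tests called lower were 3.15% with no filter, and 4.75 and 4.91% at resolutions 0.5 and 2.0. They were 3.38% with the members kept, 2.59% with doublets kept and 3.88% with the stricter filter. Family members tested in the main run were 7, 6 and 5 in smooth muscle-like, fibroblast-like and endothelial-like cells, beside 9 scaffold genes in each. Where a library is left out, the lone library of its group is assumed to vary like the other group. Cxadr, at 45 to 90 UMIs a library outside mesothelial-like cells, is limited by depth in every stromal class.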
